A study of Mus musculus with 6 samples.

Results

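The nuclear genes of oxidative phosphorylation were followed in RNA sequencing of mouse cortical neuron cultures that had received preformed fibrils (PFF) of mouse α-synuclein or phosphate-buffered saline (PBS). They were chosen by symbol: names that start with Nduf, Uqcr, Atp5 or Cox4 to Cox8, together with Sdha to Sdhd, Sdhaf1, Sdhaf2, Cyc1 and Cycs, without pseudogene and clone names. The rule found 96 of the 24411 genes in the table. They were 38 subunits of complex I, 4 of complex II, 9 of complex III, 18 of complex IV and 15 of complex V, the electron carrier cytochrome c (Cycs), and 11 genes set apart as assembly factors (Ndufaf1 to Ndufaf7, Sdhaf1, Sdhaf2, Atp5s and Atp5sl). The cultures were made from embryonic cortex at day 18. The PFF group received 3.45 µM fibrils on day 10 in vitro and gave RNA on day 18, after 8 days, and the PBS group received the vehicle. Each group held 3 libraries, numbered as in their labels (PFF 1 to 3, PBS 1 to 3). No mouse strain, transgene or control protein is named in the labels, so the comparison contains everything that came with the fibrils.

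Oxidative phosphorylation takes place in the inner mitochondrial membrane. Complex I (NADH dehydrogenase) and complex II (succinate dehydrogenase) pass electrons to ubiquinone, complex III hands them to cytochrome c, and complex IV (cytochrome c oxidase) reduces oxygen. Complexes I, III and IV pump protons, and complex V, the ATP synthase, uses the gradient to make ATP, on which neurons depend for ion pumping and synaptic transmission. Most subunits are encoded in the nucleus, and a few catalytic ones in mitochondrial DNA; the mitochondrially encoded subunits had 0 entries in the table and were not analysed here.

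Library totals lay between 9224974 and 10742383 estimated counts. Whether a group's libraries were grown as separate cultures is not given in the labels, so the p-values reflect only the spread among these 6 samples, and that spread may be technical. Neuron markers were abundant (summed 5452 to 5992 CPM in PFF and 5231 to 5537 CPM in PBS, led by Map2 and Stmn2; CPM is counts per 1000000), with 2 of 11 called higher, 0 called lower and a median log2 fold change of 0.21. Astrocyte markers, led by Gfap, summed to 3604 to 4603 CPM in PFF and 3723 to 4854 CPM in PBS (3 of 11 called lower), and oligodendrocyte lineage markers, led by Mbp, to 1067 to 1395 CPM in PFF and 1022 to 1246 CPM in PBS (5 of 12 called higher and 7 lower), so the cultures were mixed. Microglia markers, led by C1qb and Tyrobp, summed to 419 to 511 CPM in PFF and 125 to 216 CPM in PBS, and 12 of 13 were called higher. Over all genes tested, 2.6% were called lower and 3.98% higher. Endothelial, mural and fibroblast markers (32.5 to 59.9 CPM in PFF and 49.1 to 59.4 CPM in PBS, with Cldn5 at 0 in all libraries) and ependymal markers (23.7 to 32.3 CPM in PFF and 26.6 to 35.4 CPM in PBS) were scarce. Their medians were −0.43 and −0.28, with 0 of 8 and 0 of 5 called by edgeR or DESeq2, and 3 and 1 lower at an unadjusted p under 0.05. On the second principal component, which held 18.3% of the variance, replicate 3 of both groups stood apart (−18.0 for PFF 3 and −14.5 for PBS 3), so the main counts are also given without it.

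Across the oxidative phosphorylation genes, transcripts were on average lower after PFF by a small amount. In their summed level PFF 1 and PFF 2 were below every PBS library, and PFF 3 was inside the PBS range. The genes share the same 6 libraries, so counts of genes are not counts of replicates. Of the 90 genes with enough counts to be tested, 87 had a log2 fold change (PFF over PBS) below 0, against 50.1% of all 13919 genes tested. The median was −0.23, and the median of all genes was about 0 (−0.00054). At an adjusted p under 0.05 in edgeR's quasi-likelihood test with Benjamini-Hochberg adjustment, 4 fell and 0 rose. Among all genes tested, 2.6% were called lower and 3.98% higher. DESeq2 called 10 of the 96 lower (Cox6a2, Cox6b1, Cox6b2, Cox7a2, Cox7a2l, Cox7b, Ndufa4, Ndufb4, Uqcr10 and Uqcrq) and 0 higher. The shares were 2.01% and 3.1% of the 14618 genes that it gave an adjusted p. Of the 96, genes such as Cox4i2, Cox7b2, Cox8b and Cox8c had no adjusted p there. An unadjusted p under 0.05 was reached by 43 of the 90 with a lower value and by 0 with a higher one, against 10.5% of all genes for the lower direction. In 13 of the 90 every PFF library was below every PBS library, against 11.6% of all genes. In bulk RNA, fewer cells of a type and less RNA per cell cannot be told apart. All 96 genes summed to 14388, 15463 and 19560 CPM in PFF 1 to 3, against 19057, 18242 and 20543 CPM in PBS 1 to 3. Astrocyte markers summed to 3604, 3646 and 4603 CPM in PFF 1 to 3, against 4410, 3723 and 4854 CPM in PBS 1 to 3, and so ranked the 6 libraries in the same order. Endothelial and ependymal marker sums were likewise lowest in PFF 1 and PFF 2. Microglia markers summed to 418.6, 419.6 and 510.9 CPM in PFF 1 to 3, against 216, 125 and 163 CPM in PBS 1 to 3. The part of these cell types in the difference was not tested. The other 6 genes (Cox4i2, Cox7b2, Cox8b, Cox8c, Ndufa4l2 and Ndufs5) had too few counts to be tested. The count called lower was 62 without PFF 3 (against 7.01% of all genes in that fit), 2 without PFF 1 (1.4%), 1 without PFF 2 (0.711%), 1 without PBS 1 (1.12%), 3 without PBS 2 (1.66%) and 3 without PBS 3 (2.05%).

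**Figure D1:**
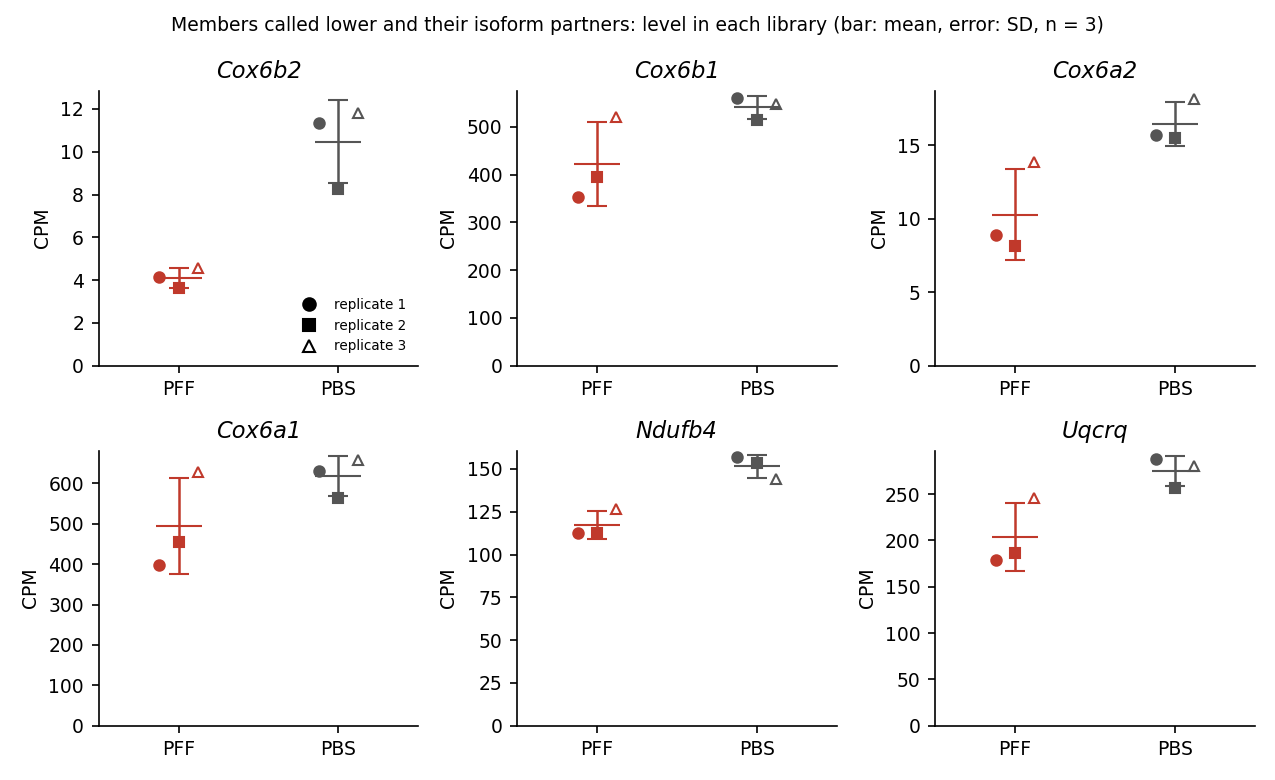
CPM of the genes that fell and of their isoform partners in each library, with PFF libraries left of PBS libraries; points are libraries, with a symbol for each replicate number, and lines are means with SD (n = 3). For Cox6b2, Cox6a2, Ndufb4 and Uqcrq all 3 PFF points lie below all 3 PBS points, and for Cox6b1 and Cox6a1 the groups overlap.

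The genes that fell were Cox6b2 and Cox6a2 of complex IV, Ndufb4 of complex I and Uqcrq of complex III. All 4 are accessory subunits, which take no part in electron transfer themselves. Cox6b2 encodes the testis isoform of subunit VIb, which faces the intermembrane space where cytochrome c docks. It had 4.14, 3.62 and 4.54 CPM in PFF 1 to 3, against 11.4, 8.24 and 11.8 CPM in PBS 1 to 3 (43, 37 and 46 counts against 105, 85 and 123). The groups were far apart, the highest PFF library being well below the lowest PBS library. Means were 4.10 ± 0.463 CPM in PFF and 10.5 ± 1.95 CPM in PBS (SD, n = 3 each), and the log2 fold change was −1.35 ± 0.18 (SE; edgeR's quasi-likelihood test, adjusted p = 0.000429). Cox6b2 was called in all 6 fits that left out 1 library, with an adjusted p of at most 0.00478 in the same edgeR test.

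Cox6a2 encodes the isoform of subunit VIa known from heart and skeletal muscle. It had 8.86, 8.12 and 13.8 CPM in PFF 1 to 3, against 15.7, 15.5 and 18.2 CPM in PBS 1 to 3. PFF 3 was the highest of its group and came close to the lower PBS libraries without reaching them. The means were 10.3 ± 3.10 CPM in PFF and 16.5 ± 1.49 CPM in PBS (SD, n = 3 each), a log2 fold change of −0.68 ± 0.17 (adjusted p = 0.0320 in edgeR's quasi-likelihood test). Its exons share 10.3% of their bases with Itgad on the opposite strand, which had at most 2 counts in a library. The call held without PFF 3 and was lost without any other single library (adjusted p from 0.0507 without PBS 2 to 0.179 without PFF 2 in the same edgeR test).

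Ndufb4 encodes an accessory subunit in the membrane arm of complex I. It had 112.5, 112.7 and 126.7 CPM in PFF 1 to 3, against 157, 153 and 144 CPM in PBS 1 to 3. The PFF libraries were all lower, and replicate 3 gave the smallest gap. Its log2 fold change was −0.37 ± 0.08 (edgeR's quasi-likelihood test, adjusted p = 0.00974), and the call was lost without PFF 2 (0.0741) and without PBS 1 (0.0588). Uqcrq encodes a small subunit of complex III that binds cytochrome b. It had 179, 186 and 246 CPM in PFF 1 to 3, against 287, 257 and 280 CPM in PBS 1 to 3. PFF 1 and PFF 2 were far below PBS, while PFF 3 lay just below the lowest PBS library. Its log2 fold change was −0.43 ± 0.11 (edgeR's quasi-likelihood test, adjusted p = 0.0295), and the call was lost without PFF 1 (0.114), PFF 2 (0.174), PBS 1 (0.134) or PBS 3 (0.0757).

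In GENCODE vM21 on GRCm38 (mm10), all 4 are protein-coding genes on the minus strand. Cox6b2 lies at chr7:4751792-4753094, Cox6a2 at chr7:128205435-128206387, Ndufb4 at chr16:37647170-37654453 and Uqcrq at chr11:53427922-53430831. Single exons and transcripts were not counted. Promoters of respiratory chain genes are known for sites of the nuclear respiratory factors NRF1 and NRF2 (the ETS-family factor GABP) and of YY1.
The 250 bases before the RefSeq start (GRCm38.p6, minus strand, written 5′ to 3′) are shown for the gene that fell most, for its ubiquitous partner isoform and for the gene that fell in complex I. Capitals mark a match to one of the motifs described next. The RefSeq starts of Cox6b1 and Ndufb4 lie inside the gene bounds of GENCODE, so part of each stretch is transcribed in that annotation.
Cox6b2, chr7:4753095-4753344: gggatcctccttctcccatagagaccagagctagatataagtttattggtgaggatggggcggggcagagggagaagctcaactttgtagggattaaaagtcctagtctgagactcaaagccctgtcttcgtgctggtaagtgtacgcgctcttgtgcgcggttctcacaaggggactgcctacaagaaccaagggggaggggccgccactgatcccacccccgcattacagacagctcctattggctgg
Cox6b1, chr7:30626115-30626364: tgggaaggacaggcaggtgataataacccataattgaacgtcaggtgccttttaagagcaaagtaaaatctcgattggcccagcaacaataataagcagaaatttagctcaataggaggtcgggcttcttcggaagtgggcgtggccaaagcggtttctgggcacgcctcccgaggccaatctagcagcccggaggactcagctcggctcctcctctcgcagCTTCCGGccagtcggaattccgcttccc
Ndufb4, chr16:37654369-37654618: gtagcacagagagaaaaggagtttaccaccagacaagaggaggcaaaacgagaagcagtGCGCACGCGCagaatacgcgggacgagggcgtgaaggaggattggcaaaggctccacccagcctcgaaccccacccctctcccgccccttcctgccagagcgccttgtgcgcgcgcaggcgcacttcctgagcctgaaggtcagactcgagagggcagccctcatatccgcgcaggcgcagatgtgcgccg

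Of the 96 genes, 79 had a promoter entry in the RefSeq table, and Cox6a2 and Uqcrq had none. Both strands of the 250 bases were searched for exact letters. The NRF1 consensus motif, 10 bases long, was found in 8 of the 79 (10.1%), against 2.07% of all 27025 genes with a promoter entry. Those include genes not expressed in these cultures, and no share over the tested genes alone was computed. In the stretch of Ndufb4 above it is 191 bases before the start. The ETS motif CCGGAAG was found in 14 (17.7%), against 7.83% of all genes with an entry, and in Cox6b1 it lies on the other strand, 28 bases before the start. The YY1 motif AAGATGGCG was found in 2 (2.53%), against 0.71%. The stretch of Cox6b2 held none of these letters. The median log2 fold change was −0.23 in the 8 tested genes with the NRF1 letters and −0.24 in the 68 without, and it was −0.24 both with and without the ETS letters. For YY1 it was −0.11 in the 2 genes with the letters, too few to compare, and −0.24 in the 74 without.

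Complex IV had the lowest median of the complexes, at −0.35 over 14 tested subunits, all with a log2 fold change below 0. It ran from −1.35 for Cox6b2 to −0.20 for Cox5a, 12 of the 14 had an unadjusted p under 0.05, and 2 fell at the adjusted threshold. No test between complexes was made. Complex IV genes were also the shortest, with a median of 866 exonic bases against 1363 to 2744.5 in the other complexes. With a trend in length removed from each library, the complex IV median was −0.22, against −0.15 to −0.06 in the others. The part of length in this difference was not tested. The 18 subunits summed to 3146, 3464 and 4620 CPM in PFF 1 to 3, against 4750, 4419 and 4838 CPM in PBS 1 to 3. The sums of PFF 1 and PFF 2 were below every PBS sum, and that of PFF 3 was inside the PBS range. Means of the sums were 3743 ± 776 CPM in PFF and 4669 ± 221 CPM in PBS (SD, n = 3 each), a log2 ratio of −0.32.

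Per kilobase of exonic bases, the most abundant complex IV transcripts were Cox8a (954 CPM per kb), Cox6a1 (791) and Cox6b1 (681), against 19.7 for Cox6a2 and 6.58 for Cox6b2. The isoforms that fell were thus minor ones. Cox6b1, the ubiquitous partner of Cox6b2, had 353, 394 and 520 CPM in PFF 1 to 3, against 561, 515 and 548 CPM in PBS 1 to 3. PFF 3 lay inside the PBS range. Its log2 fold change was −0.36 ± 0.12 and missed the threshold (adjusted p = 0.0946 in edgeR's quasi-likelihood test). Cox6a1, the ubiquitous partner of Cox6a2, had 398, 455 and 627 CPM in PFF 1 to 3, against 631, 562.5 and 658 CPM in PBS 1 to 3, with −0.32 ± 0.14 (adjusted p = 0.203). Here too PFF 3 was inside the PBS range, and whether the isoforms of a pair differed in their change was not tested.

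The other isoform pairs were read the same way. Cox4i1, the common form of subunit IV, had 503, 561 and 757 CPM in PFF 1 to 3, against 767, 703 and 826 CPM in PBS 1 to 3 (−0.33 ± 0.13, adjusted p = 0.155 in edgeR's quasi-likelihood test). Cox4i2, the form known from lung, had 2 to 4 counts in a library. Cox8a, the common form of subunit VIII, had 458, 516.5 and 645.5 CPM in PFF 1 to 3, against 674, 617 and 632 CPM in PBS 1 to 3 (−0.25 ± 0.11, adjusted p = 0.210), and Cox8b, the muscle form, 0 or 1 count. In both abundant forms PFF 3 lay inside the PBS range. Cox7a2, the liver-type form, had −0.37 ± 0.12 (adjusted p = 0.0821), and Cox7a1, the muscle form, had 9 to 16 counts in a library and −0.51 ± 0.33 (adjusted p = 0.405). Cox7b, the common form of subunit VIIb, had −0.37 ± 0.11 (adjusted p = 0.0620).

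Complex I had a median of −0.24 over 36 tested subunits, all below 0, from −0.43 for Ndufa7 to −0.04 for Ndufv1. An unadjusted p under 0.05 was reached by 16, and Ndufb4 alone fell at the adjusted threshold. The subunits summed to 3841, 4113 and 5331 CPM in PFF 1 to 3, against 5148, 4996 and 5580 CPM in PBS 1 to 3. PFF 3 was again inside the PBS range. Mean sums were 4429 ± 793 CPM in PFF and 5241 ± 303 CPM in PBS (SD, n = 3 each), a log2 ratio of −0.24. The 7 core subunits, which carry the flavin and iron-sulphur centres, had a median of −0.12, and the 29 tested accessory subunits one of −0.26. Core genes were longer, with a median of 2178 exonic bases against 1251 for the accessory ones. With a trend in length removed from each library, the medians were −0.11 for the core and −0.14 for the accessory subunits. The part of length in the gap was not tested.

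Among single complex I genes, Ndufa4 had the highest level per length (378 CPM per kb). It is named for complex I, but its protein is now assigned to complex IV. It had 388, 414.5 and 557 CPM in PFF 1 to 3, against 589, 584 and 598 CPM in PBS 1 to 3, with no overlap of the groups. Its log2 fold change was −0.38 ± 0.11 (adjusted p = 0.0635 in edgeR's quasi-likelihood test), and counting it with complex IV left the calls at 1 in complex I and 2 in complex IV. Ndufa4l2, its hypoxia-induced paralog, had 1 to 16 counts. Ndufb9 and Ndufc2, accessory subunits of the membrane arm and the next in level (252.5 and 219 CPM per kb), had −0.31 ± 0.17 (adjusted p = 0.334) and −0.29 ± 0.12 (adjusted p = 0.195), and 19.5% of the exonic bases of Ndufb9 are shared with Gm49356 on its strand. Ndufv3, a small subunit beside the NADH-binding site, had −0.29 ± 0.09 (adjusted p = 0.0665), with no overlap between groups. Ndufs5 was listed at 0 in PFF 2 and in all PBS libraries and at 17 counts, after rounding, in PFF 1 and PFF 3, and it is 1 of 9 members with fractional counts.

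**Figure D2:**
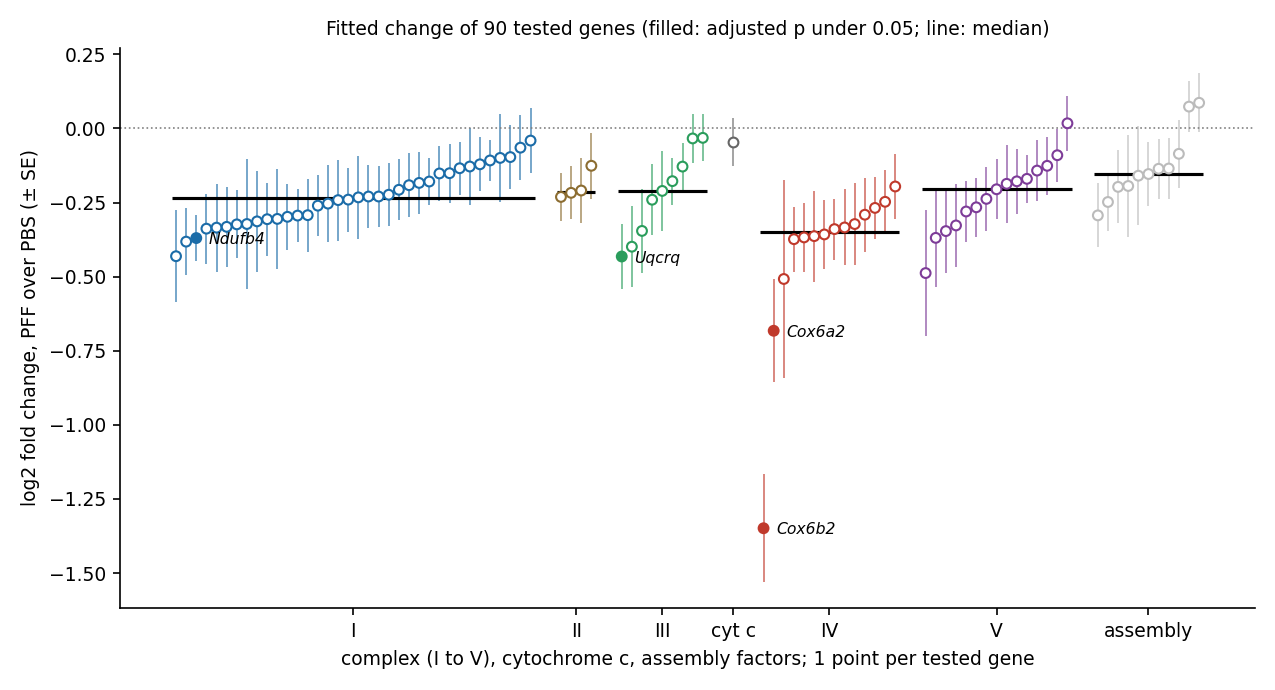
Log2 fold change (PFF over PBS) of each tested gene by complex, from edgeR; points are genes, filled where the adjusted p is under 0.05, and lines are medians. Points lie below 0 for 87 of the 90 genes, and complex IV has the lowest median, at −0.35.

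Complex III had a median of −0.21 over 9 tested genes, all below 0, of which 4 had an unadjusted p under 0.05 and Uqcrq fell. Its genes summed to 1444, 1546 and 1910 CPM in PFF 1 to 3, against 1892, 1796 and 2019 CPM in PBS 1 to 3 (log2 ratio −0.22). Uqcr10, a small membrane subunit with the highest level per length in the complex (305 CPM per kb), had −0.40 ± 0.14 (adjusted p = 0.115 in edgeR's quasi-likelihood test), Uqcrh, the hinge protein, had −0.35 ± 0.14 (adjusted p = 0.188), and Uqcr11, another small subunit, had −0.24 ± 0.12 (adjusted p = 0.268). The core proteins Uqcrc1 and Uqcrc2 each had −0.03 ± 0.08, and cytochrome c1 (Cyc1), the redox subunit that reduces cytochrome c, had −0.13 ± 0.08 (adjusted p = 0.366). Medians were −0.08 for the 4 core genes and −0.35 for the 5 others, whose median exonic lengths were 2353 and 876 bases. With the length trend removed the medians were −0.04 and −0.18. Cytochrome c itself (Cycs) had 313, 331 and 366 CPM in PFF 1 to 3, against 332, 363 and 346 CPM in PBS 1 to 3. The groups overlapped, with a log2 fold change of −0.05 ± 0.08 (adjusted p = 0.803), which turned to 0.003 without PFF 1.

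Complex II, which also works in the tricarboxylic acid cycle, is encoded wholly in the nucleus. Its 4 subunits had a median of −0.21, 2 with an unadjusted p under 0.05 and 0 called by edgeR or DESeq2. Sdha, the flavoprotein, had 427, 456 and 555 CPM in PFF 1 to 3, against 493, 473 and 604 CPM in PBS 1 to 3 (−0.13 ± 0.11, adjusted p = 0.562 in edgeR's quasi-likelihood test). Sdhd, a membrane anchor, had 121, 122 and 134 CPM in PFF 1 to 3, against 139, 142 and 161 CPM in PBS 1 to 3 (−0.23 ± 0.08, adjusted p = 0.114). The groups overlapped for Sdha and did not for Sdhd. Sdhb, the iron-sulphur subunit, had −0.22 ± 0.09 (adjusted p = 0.182). The summed level was 813, 842 and 1026 CPM in PFF 1 to 3, against 960, 928 and 1128 CPM in PBS 1 to 3 (log2 ratio −0.17).

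Complex V had a median of −0.21 over 15 tested genes, of which 14 were below 0, 7 had an unadjusted p under 0.05 and 0 were called by edgeR or DESeq2. Its genes summed to 4541, 4876 and 5969 CPM in PFF 1 to 3, against 5638, 5411 and 6296 CPM in PBS 1 to 3 (log2 ratio −0.17). The catalytic β subunit Atp5b had 1235, 1337 and 1581 CPM in PFF 1 to 3, against 1462, 1427 and 1694 CPM in PBS 1 to 3 (−0.14 ± 0.10, adjusted p = 0.465 in edgeR's quasi-likelihood test). The α subunit Atp5a1 had 865, 949 and 1038 CPM in PFF 1 to 3, against 915, 876 and 1028 CPM in PBS 1 to 3. These overlapped fully, with a log2 fold change of 0.02 ± 0.09 (adjusted p = 0.940) that changed sign with the libraries used (from −0.05 without PFF 3 to 0.09 among fits without 1 library). The 5 genes of F1, the catalytic part (Atp5a1, Atp5b, Atp5c1, Atp5d and Atp5e), had a median of −0.14 and the other 10 one of −0.25. Median exonic lengths were 1928 and 2655.5 bases, and with the length trend removed the medians were −0.10 and −0.16. The lowest value was that of Atp5e, the small ε subunit of F1 (−0.49 ± 0.21, adjusted p = 0.231), and Atp5g1, a gene of the proton-carrying c ring, had −0.27 ± 0.10 (adjusted p = 0.145). Atp5o, a stalk subunit, had −0.28 ± 0.10 (adjusted p = 0.140) and the highest level per length (542 CPM per kb). The length used is 530 exonic bases, from an annotation entry that shares all its bases (100%) with others on its strand. These are another Atp5o entry and Donson, so its rank per length may depend on the entry chosen. Atpif1, which encodes the inhibitor of the ATP synthase and is not among the 96, had −0.29 ± 0.10 (adjusted p = 0.113).

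The 11 assembly genes had a median of −0.15, with 9 below 0, 2 at an unadjusted p under 0.05 and 0 called by edgeR or DESeq2. They summed to 290, 292 and 338 CPM in PFF 1 to 3, against 338, 328 and 336 CPM in PBS 1 to 3, so PFF 3 was at the PBS level and the other PFF libraries below it. Atp5s had 15.5, 15.1 and 14.2 CPM in PFF 1 to 3, against 17.1, 18.5 and 19.2 CPM in PBS 1 to 3 (−0.29 ± 0.11, adjusted p = 0.136 in edgeR's quasi-likelihood test), and it was the only 1 of the 11 without overlap of the groups. Ndufaf5, a modifying enzyme of a complex I core subunit, had −0.25 ± 0.10 (adjusted p = 0.158). Ndufaf3, a partner in early complex I assembly, had −0.15 ± 0.11 (adjusted p = 0.441), and Ndufaf1, of the same early steps, 0.09 ± 0.10 (adjusted p = 0.674). Levels per length were low, with a median of 8.14 CPM per kb against 203 for complex IV subunits.

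The libraries of PFF were not alike in these genes. The 90 tested genes had a median deviation from each gene's mean over libraries, in log2 CPM, of −0.29, −0.21 and 0.14 in PFF 1 to 3, and of 0.10, 0.05 and 0.21 in PBS 1 to 3. PFF 1 and PFF 2 were low, and PFF 3 lay above PBS 1 and PBS 2 and below PBS 3. All 96 genes together took 1.49%, 1.56% and 1.94% of the counts in PFF 1 to 3, against 1.91%, 1.82% and 1.99% in PBS 1 to 3. Same-numbered libraries were also set against each other, as a description only, since the numbers were not taken as pairs. The median log2 ratio was −0.39 for replicate 1, −0.26 for replicate 2 and −0.07 for replicate 3, where PBS 3 was the highest PBS library. The number of the 90 below 0 was 88, 86 and 66 in that order, against 49.6%, 50.4% and 48.5% of all genes.

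**Figure D3:**
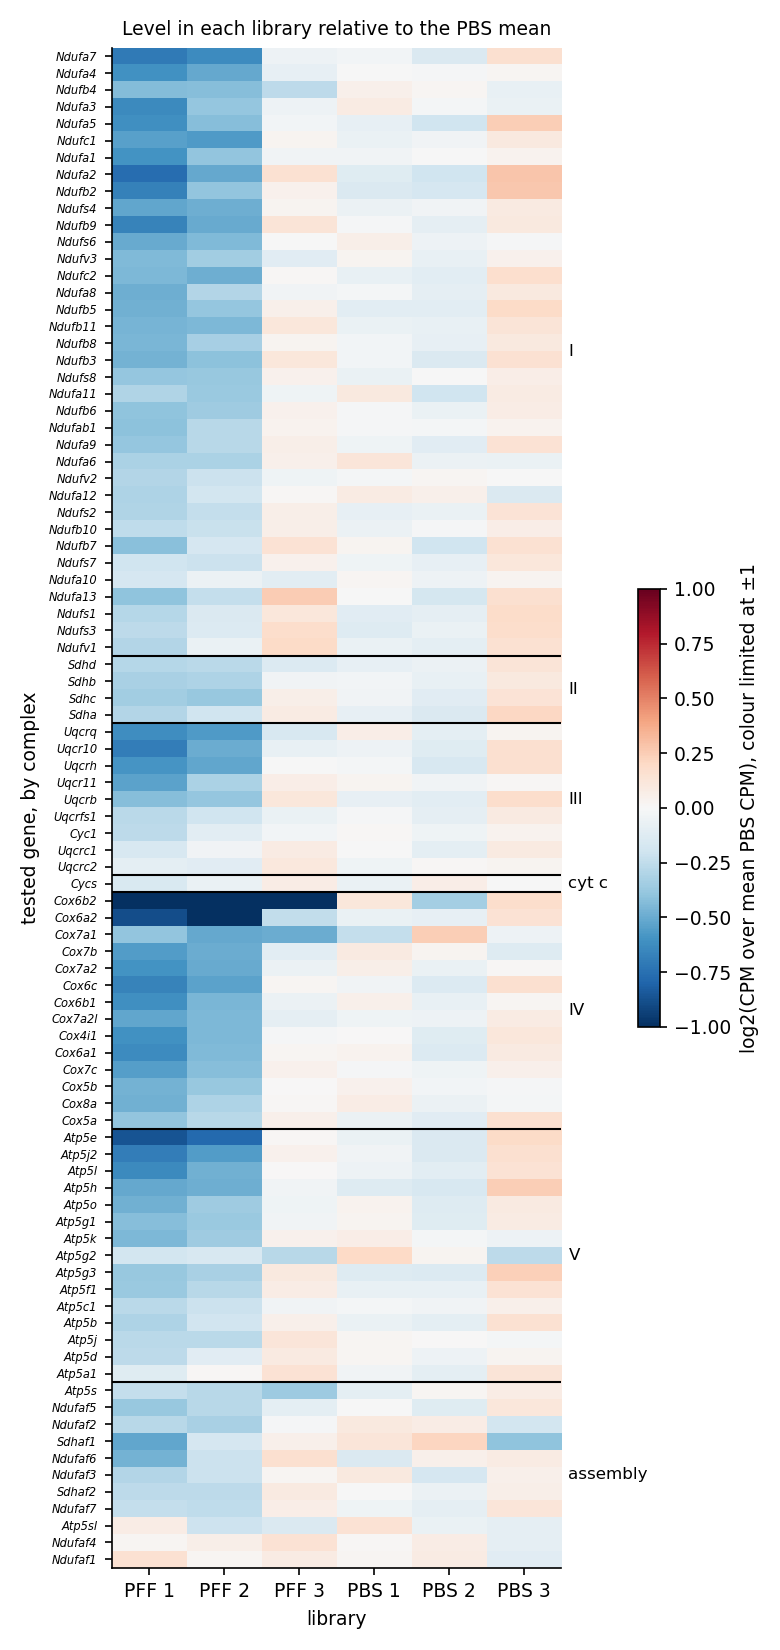
Log2 ratio of each library's CPM (columns, PFF left of PBS) to the PBS mean of the same gene (rows, grouped by complex); blue is below and red above the PBS mean, with the colour limited at a log2 ratio of 1 in either direction. PFF 1 and PFF 2 are blue in most rows, and PFF 3 resembles the PBS libraries.

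Without replicate 3 of either group, many more genes passed the threshold. Within each group, libraries 1 and 2 were the most alike. The chi-square of their counts per degree of freedom was 2.9 in PFF and 2.7 in PBS, against 7.18 to 9.2 for pairs with replicate 3 of the same group. The p-values without replicate 3 rest on that smaller spread between 2 libraries, which may be technical. In edgeR's quasi-likelihood test on replicates 1 and 2, 66 of the 90 genes fell and 0 rose, against 8.38% of all genes called lower and 8.78% called higher. By complex, 30 of 36 fell in complex I, 3 of 4 in complex II, 5 of 9 in complex III, 13 of 14 in complex IV and 12 of 15 in complex V, and so did 3 of 11 assembly genes. The median was −0.33, and that of complex IV was −0.49. Ndufa4 was among them, with a log2 fold change of −0.54 (adjusted p = 6.81e-06). Core subunits passed in 3 of 7 cases in complex I and 0 of 4 in complex III, against 27 of 29 and 5 of 5 accessory subunits. In complex V the count was 2 of 5 for F1 and 10 of 10 for the rest. Cycs, Cyc1, Atp5a1 and Atp5b were not called. With the length trend removed as well, core calls were 0 of 7 in complex I and 0 of 4 in complex III. Accessory calls were 12 of 29 and 2 of 5. In complex V the counts became 1 of 5 for F1 and 5 of 10 for the rest, against 6.95% of all genes called lower. With all libraries and a term for replicate 3 in place of leaving it out, 49 fell and 0 rose, against 7.01% of all genes called lower.

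**Figure D4:**
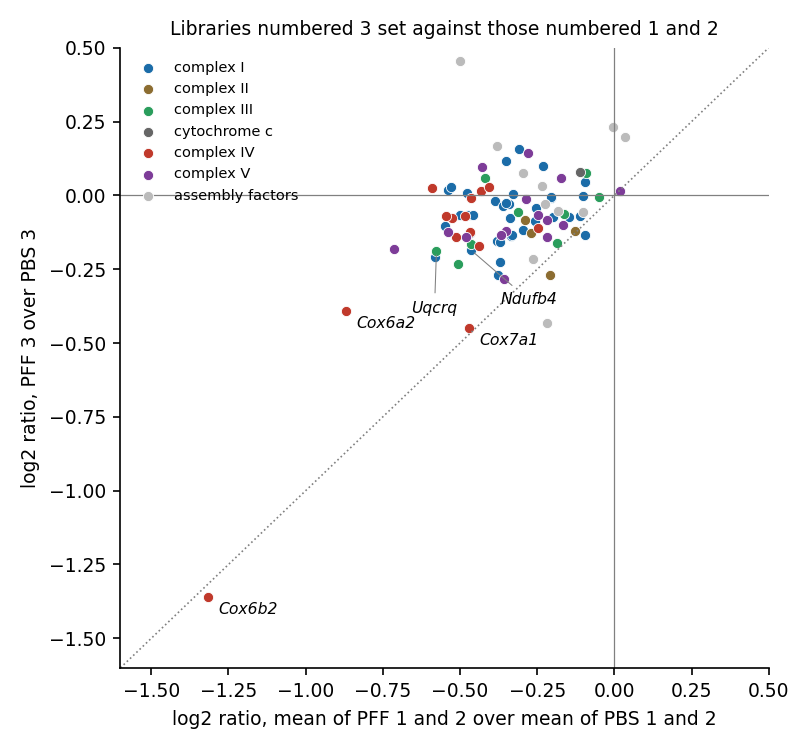
Log2 ratio of PFF 3 over PBS 3 (vertical) against that of the means of PFF 1 and 2 over PBS 1 and 2 (horizontal) for each tested gene; points are genes and the dotted line marks equal ratios. Most points lie left of 0 and above the line, and Cox6b2 is low on both axes (−1.36 in replicate 3). The shared number was not taken as a pairing.

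In Cox6b2, Atp5s, Sdhd, Ndufa10 and Atp5a1 the ratio in replicate 3 was no higher than in replicates 1 and 2, and in the other tested genes it was higher. For Cox6b2 the log2 ratio in replicate 3 was −1.36, against −1.32 for the fold change in the fit on replicates 1 and 2. Cox7b stood at the other end, with 310 CPM in PFF 3 and 305 CPM in PBS 3, against a fold change of −0.58 on the log2 scale without replicate 3 (edgeR, adjusted p = 1.67e-06). Sdhaf1, an assembly factor of complex II, was higher in PFF 3 (17.3 CPM) than in PBS 3 (12.6 CPM), but lower in PFF 1 than in PBS 1 and in PFF 2 than in PBS 2.

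Many of these genes have few exonic bases, and the median of other such genes moved the same way. Among all tested genes with at most 1000 exonic bases the median log2 fold change was −0.20 (293 genes), and it was −0.11 between 1000 and 2000 bases, −0.02 between 2000 and 4000, 0.02 between 4000 and 8000 and 0.03 above that. The oxidative phosphorylation genes had medians of −0.29 (19 genes), −0.27 (33), −0.18 (26) and −0.18 (11) in the first 4 of these classes, below all genes of the same class in each. Exonic bases are the union of all annotated exons of a gene and can exceed the length of its main transcript (6443 for Atp5l). Genes of the same class may therefore differ in transcript length, and the fits with the length trend removed use the same measure. By library, the 274 other genes of at most 1000 bases had median deviations of −0.23, −0.16 and 0.13 in PFF 1 to 3, and 0.12, 0.06 and 0.11 in PBS 1 to 3. In these genes too PFF 1 and PFF 2 were the lowest libraries. PFF 3 was the highest, whereas among the oxidative phosphorylation genes PBS 3 was. Across the 90 genes the log2 fold change and the exonic length had a Spearman rho of 0.45 and, with length on a log2 scale, a Pearson r of 0.36, as a description of genes that share the same 6 libraries.

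With a trend in length removed from each library, the median of the 90 genes was −0.13 and 5 were called lower (Cox6b2, Cox6a2, Ndufb4, Uqcrq and Ndufv3), against 2.79% of all genes. On replicates 1 and 2 alone with the same correction, an alternative chosen after the data were seen, 32 were called lower with a median of −0.16, against 6.95% of all genes. Complex IV then had 9 of these calls, complex I 12 and complex V 6. Cox6b2 stood at −1.20 in all 6 libraries with the trend removed (edgeR's quasi-likelihood test, adjusted p = 0.000439). The correction takes length and anything that moves with length together, so these cannot be told apart.

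**Figure D5:**
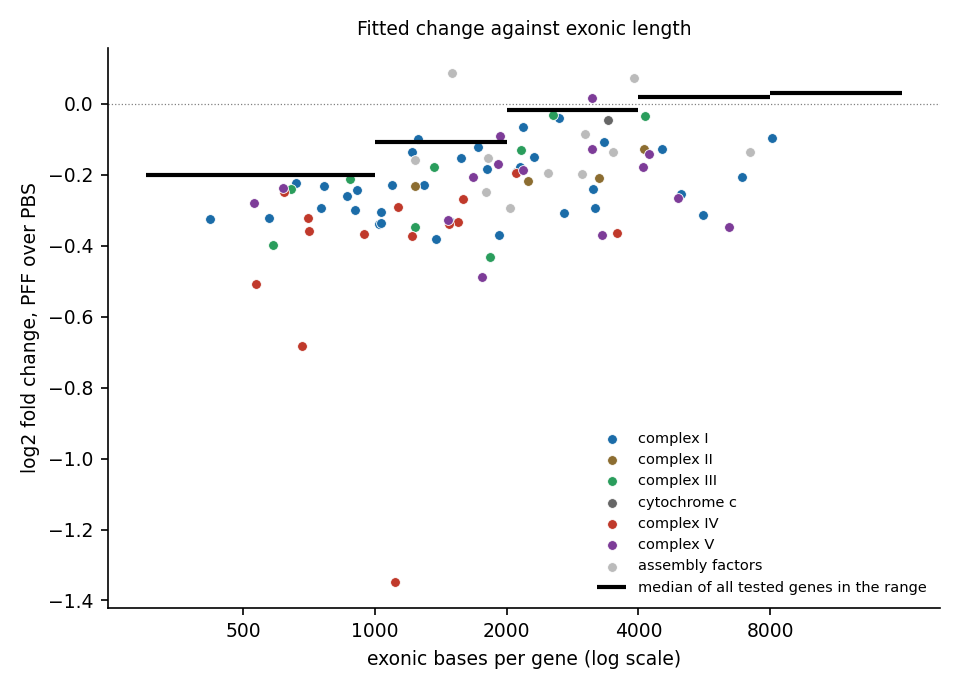
Log2 fold change (PFF over PBS) against exonic bases (log scale) for the oxidative phosphorylation genes, with the median of all tested genes in each length class as a black line. The shortest class lies at −0.20 for all genes and at −0.29 for the oxidative phosphorylation genes.

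Related mitochondrial genes were read from further lists. Among assembly factors with other names, 4 of 43 tested fell and 0 rose, against 2.6% and 3.98% of all genes. Their median was −0.18. The 4 that fell were Cox16 and Pet100, which help build complex IV, Lyrm2, which acts on complex I, and Higd1a, which binds complex IV. Cox16 had 11.6, 13.3 and 13.7 CPM in PFF 1 to 3, against 23.1, 16.5 and 19.5 CPM in PBS 1 to 3 (−0.61 ± 0.14, adjusted p = 0.0161 in edgeR's quasi-likelihood test). The groups did not overlap, but 56.8% of its exonic bases are shared with Gm20498 on the same strand. Pet100 had −0.46 ± 0.12 (adjusted p = 0.0308; 52.6% of its exonic bases lie opposite Pcp2), Lyrm2 −0.38 ± 0.11 (adjusted p = 0.0482) and Higd1a −0.31 ± 0.09 (adjusted p = 0.0489; 22.5% opposite Gm47112). The count was 15 without PFF 3 and also without replicate 3 of both groups, 2 without PBS 2, 1 without PBS 3, and 0 without PFF 1, PFF 2 or PBS 1.

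Genes that feed or regulate the respiratory chain gave few calls. Over all genes tested, edgeR called 2.6% lower and 3.98% higher. The regulators of mitochondrial biogenesis and mitochondrial DNA had 0 of 19 called in either direction by edgeR or DESeq2, 2 at an unadjusted p under 0.05, and a median of −0.00, with the smallest p in Peo1, the mitochondrial helicase (−0.28 ± 0.11, adjusted p = 0.184 in edgeR's quasi-likelihood test). The tricarboxylic acid cycle and pyruvate entry had 0 of 20 called by either tool, 5 at an unadjusted p under 0.05 (4 lower and 1 higher), and a median of −0.05, led by the pyruvate carrier Mpc1 (−0.25 ± 0.07, adjusted p = 0.0652). On replicates 1 and 2, 5 of these 20 were called lower and 0 higher, against 8.38% and 8.78% of all genes. Among adenylate carriers, porins and uncouplers, 1 of 11 rose and 0 fell. That gene was Ucp2, an uncoupling protein known from immune cells, with 49.5, 41.7 and 49.7 CPM in PFF 1 to 3, against 21.6, 12.6 and 14.9 CPM in PBS 1 to 3. Its log2 fold change was 1.53 ± 0.15 (edgeR's quasi-likelihood test, adjusted p = 7.2e-05), and all PFF libraries, PFF 3 included, were far above PBS. The microglia markers given above moved the same way, and their part in this rise was not tested.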

How the data were processed

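RNA was sequenced in 6 libraries, 3 PFF and 3 PBS, and per the labels' protocols the library kit keeps strand. The authors deposited unscaled estimated counts for each gene, of which 8.69% are not whole. The tools named per the submitters' processing notes are Trim Galore 0.6.6, STAR 2.7.9a (mm10 genome) and DESeq2 1.38.3, and the design text names RNAseqChef for the authors' comparison. How reads were assigned to genes (counter, strand setting, annotation) is not given in the sources used here. Paralogs, pseudogenes and overlapping genes may therefore share reads: 9 of the 96 genes have fractional values, and 13 share over 10% of their exonic bases with another gene (Atp5j, Atp5o, Cox5a, Cox6a2, Ndufa13, Ndufa2, Ndufaf2, Ndufb11, Ndufb5, Ndufb6, Ndufb9, Sdhaf1 and Uqcrc2).

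Estimated counts were rounded. With R 4.3.3, edgeR 4.0.16 kept 13919 of 24411 genes with filterByExpr at its defaults. These were normalised by TMM and tested in both directions with the robust quasi-likelihood test, on a model of the group alone, with Benjamini-Hochberg adjustment over all genes tested, at an adjusted p under 0.05. CPM are TMM-scaled, and a standard error is the log2 fold change divided by the root of F. Lengths are the union of GENCODE vM21 exons. Library totals (9224974 to 10742383) and a common dispersion of 0.00642 set the precision, and intervals or floors were not used. The steps were tested on simulated data. The genes and lists were chosen with earlier results of these data known. Genes named were those past the threshold, the 3 with the highest CPM per kb and the 2 with the smallest p in each class, the isoform pairs, Cycs, Cyc1 and Atpif1, and in other lists the genes past the threshold or else the one with the smallest p. Others (Ndufa7, Ndufa10, Ndufv1, Ndufv3, Ndufs5, Uqcrc1, Uqcrc2, Atp5e, Cox5a, Cox7a2l, Cox7b and Sdhaf1) were named after their values were seen.

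Alternatives were other scalings (upper quartile, DESeq2 size factors, plain library size), filters (none, or at least 50 counts in 3 libraries), tests (DESeq2 1.42.0, limma-voom with limma 3.58.1, edgeR without robust estimation), thresholds, a term for replicate 3, replicates 1 and 2 only, removal of a length trend, a replicate block and leaving out each library. The combination of length trend removal with replicates 1 and 2 was added after the data were seen.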

Additional observations from a re-analysis of the deposited data

How the results depend on the processing

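In all alternatives the medians of the complexes kept their sign, and the summed levels moved by less than the spread between libraries. The genes called lower (4 in the analysis reported) were 10 with DESeq2, 8 with no filter (against 2.62% of all genes), 49 with a term for replicate 3, 45 with the replicate block (against 6.85%), 66 on replicates 1 and 2, 32 on replicates 1 and 2 with the length trend removed, 2 at an adjusted p under 0.01 and 10 at 0.1. Complex I (1) gave 2 with DESeq2, limma-voom or the length trend removed, 3 with no filter or at 0.1, 22 with the replicate 3 term, 20 with the block, 30 on replicates 1 and 2 and 12 with length removed there. In the last 4 settings, in that order, complex II (0) gave 3, 3, 3 and 1, complex III (1) 4, 4, 5 and 2, complex IV (2) 12, 11, 13 and 9, complex V (0) 7, 6, 12 and 6, and assembly genes (0) 1, 1, 3 and 2. DESeq2 gave 2 in complex III and 6 in complex IV, no filter 4 in complex IV, the 0.01 threshold 0 and 1, and the 0.1 threshold 6 in complex IV. Over all genes (554 higher, 362 lower) these 4 settings gave 1029, 1043, 1225 and 1138 higher and 976, 954, 1169 and 963 lower, the 0.01 threshold 291 and 123, and the 0.1 threshold 615 lower. Assembly factors with other names (4) were 2 with DESeq2, with the stricter filter or with library size only, 14, 13, 15 and 7 in the 4 settings, 0 at 0.01 and 7 at 0.1. Tricarboxylic acid cycle genes called lower (0) were 4, 4, 5 and 5, and 2 with no filter or at 0.1. Regulators called higher (0) were 1 on replicates 1 and 2, with or without length removed, and carriers called higher (1) were 3 with length removed there.

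Leaving out each library in turn gave 1 to 62 genes called lower and 0 to 1 higher (Ndufs5, without PFF 2). Counts ranged from 0 to 29 in complex I, 0 to 3 in II, 0 to 5 in III, 1 to 13 in IV, 0 to 11 in V and 0 to 1 among assembly genes. Over all genes they ranged from 312 to 869 higher and 100 to 987 lower, from 0 to 15 for other assembly factors, 0 to 5 for the tricarboxylic acid cycle and 0 to 1 for regulators called higher. The log2 fold change of Atp5a1 lay between −0.0503 and 0.0868 and was below 0 without PFF 3 (−0.0503), PBS 1 (−0.00424) or PBS 2 (−0.0349), and that of Cycs reached 0.00318 without PFF 1, over a range that began at −0.11. Atp5o turned to 0.0109 on replicates 1 and 2 with the length trend removed, a fit that uses the length of 530 bases given above. In each case the cause was not tested. Same-numbered libraries of the groups correlated at 0.0919, 0.109 and 0.202 in their deviations, the last (replicate 3) being the highest of all pairs. PFF 1 correlated most with PBS 2 (0.128), and the other unlike-numbered pairs lay between −0.207 and −0.00869. With values this low, the numbers were not taken as pairs. The block results above stand for a shared number only.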
